A study of Mus musculus with 2 samples.

Results

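The genes of the proteasome were read in the liver of mouse embryos: every protein-coding gene whose symbol begins with Psma, Psmb, Psmc, Psmd, Psme, Psmf or Psmg. The rule found 51 genes among 43346 mouse gene rows, of which 21474 were protein-coding. Symbols of the mouse annotation gave 50 of them, and Psme3ip1 was found through an older name in RefSeq. Psmc3ip and Psme3ip1 only share the prefix and are no proteasome subunits, which leaves 49 subunits and helpers. Total RNA longer than 200 nucleotides, 10 ng per library, was sequenced from livers of the B6NCrl strain at embryonic day 14.5, with synthetic ERCC spike-in RNA added. There was 1 group with 2 biological replicates, so no comparison between groups could be tested and no p-value is given. Replicate 1 was collected on 17 July 2014 and replicate 2 on 15 July 2014. The labels name a single liver from a pup for each library, and also give the sex of each as pooled, and the labels do not settle which holds.

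The proteasome is the barrel-shaped protease that degrades proteins tagged with ubiquitin. Its core is built of stacked rings, outer rings of alpha subunits that gate the entry and inner rings of beta subunits, of which Psmb5, Psmb6 and Psmb7 carry the cutting sites. A cap binds the core at its ends: a base with a ring of ATPases unfolds the substrate, and a lid removes the ubiquitin. After interferon signals, and constantly in many white blood cells, Psmb8, Psmb9 and Psmb10 take the places of the catalytic subunits and form the immunoproteasome, whose peptides feed antigen presentation. At this age the liver is also the main site of blood formation, so its RNA comes from hepatoblasts, red cell precursors and other cells together.

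Expected counts, the estimated reads per gene, came to 39998450 in replicate 1 and 28848861 in replicate 2, with 37059776 and 26908926 assigned to mouse genes. The proteasome genes took 271172 and 194840 of these, or 0.732% and 0.724%. Levels are given in TPM, a scaled share of transcripts that divides the reads of a gene by its length, so that genes can be compared with each other. In TPM the 51 genes summed to 5609 and 5714. All 6 erythroid markers were above 10 TPM and summed to 142714 and 137446 TPM, most of it globin. The 5 hepatoblast markers summed to 12313 and 13129 TPM, led by Afp, and the tissue label therefore matched its defining genes. The 7 white cell markers summed to 345 and 305 TPM and the 5 endothelial markers to 67.6 and 69.0 TPM, and none of the 23 markers was at 0. Being bulk RNA, these libraries cannot tell fewer cells of a type from less RNA per cell.

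Almost all proteasome genes were read at high level in both livers. At 1 TPM or more in both livers stood 50 of 51, against 49.2% of all protein-coding genes with a row, and Psmb11 was the exception. At 10 TPM or more stood 47 of 51, against a background of 24.0%. At 50 TPM or more stood 35 of 51, against 7.19%. Replicate 1 had a median over the 51 genes of 103 TPM and replicate 2 a median of 110 TPM. The range ran from 0.02 TPM for Psmb11 to 327 TPM for Psma3 in replicate 1.

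**Figure D1:**
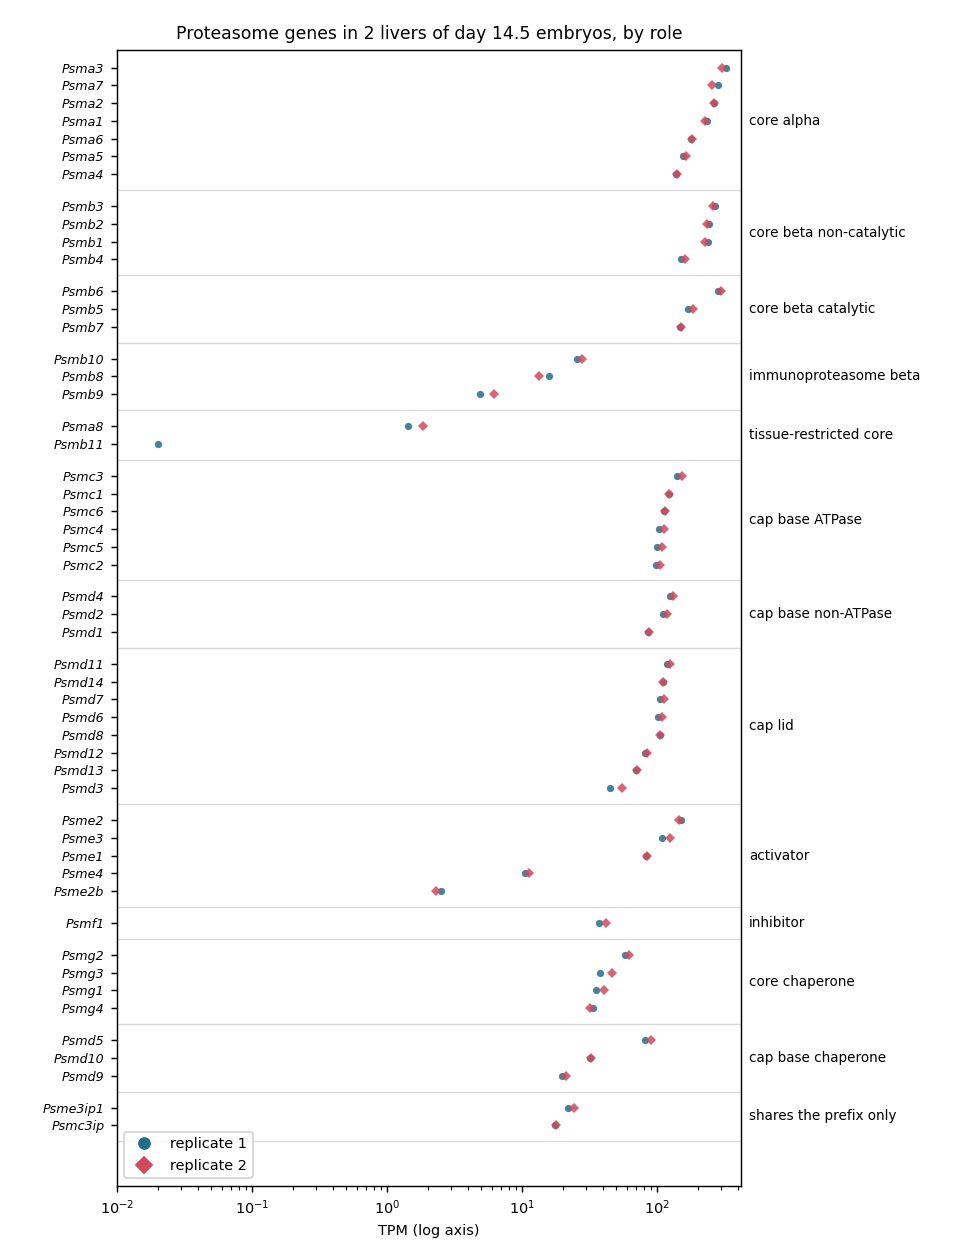
TPM on a log axis for the 51 genes, grouped by role and ordered by mean level within each role. Circles are replicate 1 and diamonds replicate 2, and Psmb11 has no diamond because it was at 0 in replicate 2. The 14 constitutive core subunits lie between 138 and 327 TPM, the 17 cap subunits between 45.1 and 153 TPM, and Psmb9, Psma8, Psmb11 and Psme2b lie below 10 TPM.

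The genes of the alpha ring were all above 100 TPM in both livers. Psma3 stood at 327 and 303 TPM in replicates 1 and 2, Psma7 at 284 and 255, Psma2 at 265 in both, and Psma1 at 234 and 229. Psma6 at 180 and 181 TPM, Psma5 at 156 and 165, and Psma4 at 138 and 140 were lower, and in neither liver did any of these overlap with the higher alpha genes. The 7 alpha genes thus spanned 2.36-fold in replicate 1 and 2.16-fold in replicate 2, although the assembled ring holds the same number of each subunit. Their median was 232 ± 3.98 TPM (SD of the livers' medians, n = 2).

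The level of Psma3 depends in part on how shared reads were divided. The processed pseudogene Gm13835 carried the same posterior SD of the estimated count as Psma3 in each library, 163 and 129 reads, as a pair of rows does when reads are split between them. That SD was 1.38% and 1.69% of the count of Psma3. Gm13835 was given 62.1 and 71.8 TPM, and its counts came to 12.9% and 16.0% of those of Psma3. Apart from the shared reads, part of the TPM of Psma3 lay on its own non-coding transcripts. By TPM of protein-coding transcripts alone Psma3 stood at 124 and 105, below every other core subunit but Psmb4, which on this measure was at 96.2 and 96.8.

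The non-catalytic beta subunits lay in the same range. Psmb3 stood at 269 and 261 TPM, Psmb2 at 243 and 235, Psmb1 at 240 and 229, and Psmb4 at 151 and 162. Of the catalytic subunits, Psmb6, which cuts after acidic residues, stood at 282 and 298 TPM. Psmb5, which cuts after hydrophobic residues, stood at 170 and 186 TPM, and Psmb7, which cuts after basic residues, at 148 and 150. By gene TPM, Psmb6 was the highest of the 7 constitutive beta subunits and Psmb7 the lowest in both livers. On coding transcripts alone neither rank held throughout. Psmb3 at 268.56 TPM was then above Psmb6 at 264.92 in replicate 1, though not in replicate 2. Psmb4 was then the lowest, at 96.2 and 96.8 TPM, beside 144.54 and 147.83 for Psmb7. The 7 constitutive beta genes had a median of 234 ± 7.91 TPM (SD, n = 2), beside 232 TPM for the alpha ring.

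In order of mean level the 14 core genes fell into a higher and a lower set in both livers. Psma3, Psmb6, Psma7, Psma2, Psmb3, Psmb2, Psmb1 and Psma1 were at 228.7 TPM or more in each library. Psma6, Psmb5, Psma5, Psmb4, Psmb7 and Psma4 were at 186.15 TPM or less. Within these sets many neighbours could not be ordered, because their ranges over the livers overlapped. In the higher set these were Psmb6 with Psma7, Psma7 with Psma2, Psma2 with Psmb3, Psmb2 with Psmb1, and Psmb1 with Psma1. In the lower set they were Psma6 with Psmb5, and Psma5 with Psmb4. Over the 14 genes the SD of log2(TPM + 1) was 0.42 in replicate 1 and 0.37 in replicate 2.

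Next came the cap, at lower TPM than the core. In the base, the ATPase Psmc3 stood at 142 and 153 TPM, Psmc1 at 123 in both, Psmc6 at 113 and 115, Psmc4 at 103 and 113, Psmc5 at 100 and 109, and Psmc2 at 99.2 and 105. The ATPase ring was the most even role with more than 3 genes, with 1.43-fold and 1.46-fold between its highest and lowest gene. Psmd4, the ubiquitin receptor of the base, stood at 125 and 133 TPM, and the scaffold subunits Psmd2 and Psmd1 at 110 and 118 and at 85.6 and 87.5 TPM.

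The lid was less even. Psmd11 stood at 120 and 125 TPM, Psmd14, the enzyme that cuts ubiquitin off the substrate, at 110 and 111, Psmd7 at 106 and 113, Psmd8 at 106 and 105, and Psmd6 at 103 and 110. Psmd12 at 82.2 and 83.8 TPM and Psmd13 at 69.5 and 70.9 TPM were lower. Psmd3 was the lowest cap gene of both livers, at 45.1 and 55.1 TPM, and the only one of 17 below 50 TPM in either. On coding transcripts alone Psmd13 was lower, at 40.0 and 36.3 TPM, beside 44.4 and 54.6 TPM for Psmd3. Transcripts of Psmd13 that are absent from GENCODE M21 were not counted as coding there. Highest and lowest lid genes differed 2.65-fold and 2.27-fold.

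Over all 14 core and 17 cap genes the medians were 237 against 106 TPM in replicate 1 and 229 against 111 TPM in replicate 2. Core stood above cap by 1.16 and 1.04 on the scale of log2(TPM + 1), a mean of 1.10 ± 0.09 (SD, n = 2), or 2.25-fold and 2.06-fold in TPM. The groups nearly separated: Psmc3 was the only cap gene above the lowest core gene, over Psma4 in replicate 1 and over Psma4 and Psmb7 in replicate 2. On coding transcripts alone the groups overlapped more. Psmb4 was then the lowest core gene, at 96.2 and 96.8 TPM, and 13 of 17 cap genes lay above it in each liver. Seen from the other side, 3 of 14 core genes in replicate 1 and 4 in replicate 2 lay below the highest cap gene. With 2 libraries of 1 group these are levels within each library and were given no test.

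Raw reads gave another picture, since cap genes are longer. The median expected count of core genes was 1.22-fold that of cap genes in replicate 1 and 1.15-fold in replicate 2. Summed over genes, core and cap took 112502 and 114730 expected counts in replicate 1 and 77522 and 84140 in replicate 2. Effective lengths, the lengths used for TPM, ran from 668 to 1139 nucleotides in the core and from 1198 to 2960 in the cap. They did not overlap, so length and role cannot be told apart in this contrast. Among 852 protein-coding genes at 10 TPM or more with a length in the core's range, the median was 45.6 TPM, and 81.5% lay below the lowest core gene. Among 2779 such genes of cap length the median was 27.4 TPM, and 73.8% lay below the lowest cap gene, Psmd3. Core genes were thus at 5.11-fold and cap genes at 3.94-fold the median of coding genes of their own length, as a description of these libraries.

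**Figure D2:**
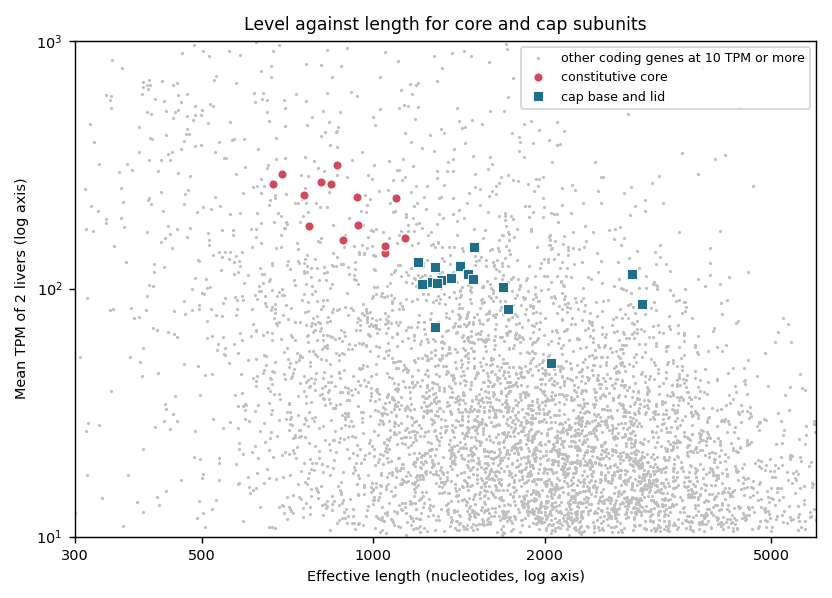
Mean TPM of the 2 livers against effective length in nucleotides, both on log axes, for the 14 core subunits (circles), the 17 cap subunits (squares) and other protein-coding genes at 10 TPM or more (grey points). Genes outside the axes are not drawn. Core genes sit at the left, between 668 and 1139 nucleotides, and cap genes at the right, between 1198 and 2960, with most grey points of the same lengths below them.

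The immunoproteasome subunits were far below the subunits they replace. Psmb8 stood at 15.8 and 13.3 TPM, Psmb9 at 4.89 and 6.18 TPM, and Psmb10 at 25.6 and 27.7 TPM. No value of these 3 genes came near the lowest constitutive catalytic value, 148 TPM for Psmb7. Behind them lay 693 and 431 expected counts for Psmb8, 223 and 175 for Psmb9, and 1253 and 943 for Psmb10. Among the 10567 protein-coding genes that reached 1 TPM in each library, Psmb9 stood above 33.6% of genes by mean level, Psmb8 above 59.7% and Psmb10 above 73.9%, where Psmb5, Psmb6 and Psmb7 stood above 95.7%, 97.4% and 94.8%.

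On the mm10 assembly, Psmb5 is on chromosome 14 (54614119 to 54618022, minus strand) and its partner Psmb8 on chromosome 17 (34197721 to 34201454, plus strand). Psmb6 is on chromosome 11 (70525367 to 70527858, plus strand) and its partner Psmb9 on chromosome 17 (34181987 to 34187764, minus strand). Psmb7 is on chromosome 2 (38588036 to 38644087, minus strand) and its partner Psmb10 on chromosome 8 (105935735 to 105938444, minus strand). Psmb8 and Psmb9 lie beside the peptide transporter genes Tap1 and Tap2. The stretch of coding sequence around the active site is shown for the 6 genes, since partners are more alike here than over the whole coding sequence and could have shared reads. Each has 60 bases, 5′ to 3′, from the GENCODE M21 transcript, with capitals for the codon of the threonine that is exposed by processing and does the cutting.
Psmb5: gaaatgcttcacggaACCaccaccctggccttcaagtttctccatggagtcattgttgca
Psmb8: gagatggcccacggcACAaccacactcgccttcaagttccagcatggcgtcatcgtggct
Psmb6: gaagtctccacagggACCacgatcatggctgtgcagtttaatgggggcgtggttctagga
Psmb9: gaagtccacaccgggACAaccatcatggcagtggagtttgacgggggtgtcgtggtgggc
Psmb7: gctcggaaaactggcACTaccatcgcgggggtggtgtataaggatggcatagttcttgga
Psmb10: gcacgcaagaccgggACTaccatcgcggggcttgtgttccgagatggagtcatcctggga

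Psmb8 matched Psmb5 at 45 of these 60 bases, Psmb9 matched Psmb6 at 45, and Psmb10 matched Psmb7 at 42. Over the aligned coding sequence, identity was 67.4% for Psmb8 and Psmb5, 66.2% for Psmb9 and Psmb6, and 63.3% for Psmb10 and Psmb7. The longest identical runs were 18, 11 and 15 bases. The deposited posterior SD of the estimated count, which grows when reads are shared between rows, was 0.07% and 0.16% of the count for Psmb8 in replicates 1 and 2, 0.17% and 0.37% for Psmb9, and 0 for Psmb10 in both. By this measure few of their reads were shared.

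Each pair differed by more than its counting interval in both livers. Psmb5 was 10.8-fold Psmb8 by TPM in replicate 1 (95% interval 9.98 to 11.7) and 14.01-fold in replicate 2 (12.7 to 15.5). Psmb6 was 57.6-fold Psmb9 (50.4 to 66.1) and 48.2-fold (41.5 to 56.4). Psmb7 was 5.79-fold Psmb10 (5.45 to 6.16) and 5.42-fold (5.05 to 5.82). The intervals are exact binomial ones on the counts of a pair and cover counting error only, and amplified reads are not independent molecules.

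The order of the pairs was the same in both livers, and their intervals did not overlap. The immunoproteasome partner held 1.87% ± 0.23 of the pair's TPM for Psmb9, 7.57% ± 1.28 for Psmb8 and 15.2% ± 0.61 for Psmb10 (SD, n = 2). On the log2 scale the immunoproteasome partner stood at −5.72 ± 0.18 for Psmb9 over Psmb6, −3.62 ± 0.27 for Psmb8 over Psmb5 and −2.49 ± 0.07 for Psmb10 over Psmb7. By expected counts, which are not divided by length, Psmb5 was 7.94-fold and 9.69-fold Psmb8, Psmb6 was 36.6-fold and 34.2-fold Psmb9, and Psmb7 was 5.18-fold and 4.87-fold Psmb10.

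**Figure D3:**
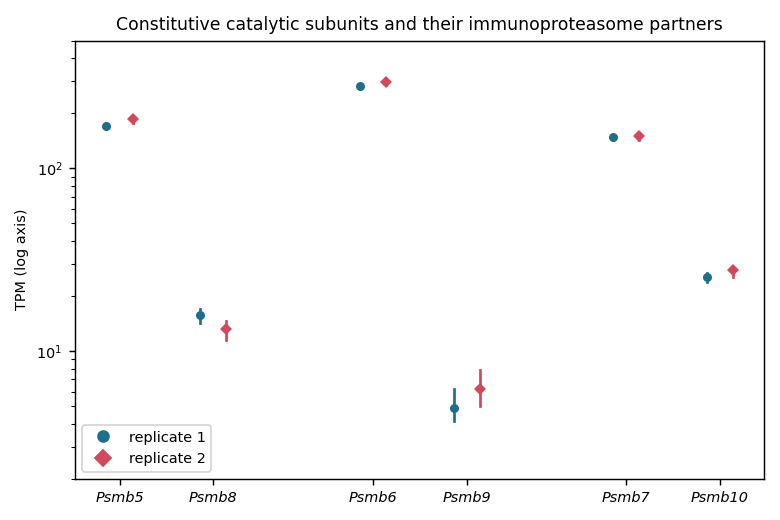
TPM on a log axis for each constitutive catalytic subunit and, to its right, the immunoproteasome subunit that replaces it. Circles are replicate 1, diamonds replicate 2, and vertical lines run between the bounds of TPM that the authors deposited, whose level is not stated in the sources used here. The 3 constitutive genes lie between 148 and 298 TPM, Psmb10 at 25.6 and 27.7, Psmb8 at 15.8 and 13.3, and Psmb9 at 4.89 and 6.18.

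Psmb8 and Psmb9 differed between the livers in opposite directions. In TPM, Psmb8 was 0.842-fold in replicate 2 (95% interval 0.745 to 0.951), Psmb9 was 1.26-fold (1.03 to 1.55) and Psmb10 was 1.08-fold (0.994 to 1.18). These intervals cover counting error only, not the estimate of length, which for Psmb9 was 1091 and 972 nucleotides. The deposited bounds of TPM overlapped between the livers for each of these genes. On counts scaled by TMM factors, which do not use length, the log2 difference was −0.26 for Psmb8, 0.05 for Psmb9 and 0.00 for Psmb10. Of the 7 white cell markers, 6 were lower in replicate 2 as well, with Csf1r the exception. Their part in the value of Psmb8 was not tested.

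Other genes of antigen processing and interferon response were read beside these. Of 12 genes listed, 11 reached 1 TPM and 6 reached 10 TPM in each library. B2m, the light chain of class I molecules, stood at 337 and 344 TPM. The transporter genes were low, Tap1 at 2.04 and 1.72 TPM and Tap2 at 2.38 and 3.91. The interferon-induced regulator Irf1 stood at 4.44 and 7.40 TPM, and Nlrc5, which drives class I genes, was lowest at 0.09 and 0.13 TPM. Psmb9 shares 212 exon bases on the opposite strand with Tap1. Whether reads were counted by strand is unstated in the labels and headers, and some of the few reads of either could belong to the other.

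The tissue-restricted core genes were near the bottom of the list. Psma8, the alpha subunit of the testis, had 96 and 86 expected counts, or 1.44 and 1.86 TPM. Psmb11, the catalytic subunit of thymic epithelium, had 3 counts (0.02 TPM) in replicate 1 and 0 in replicate 2, where a count of 0 allows up to 0.025 TPM by counting error.

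The activators spread widely, 59.4-fold and 63.2-fold between the highest and the lowest. Psme1 and Psme2, which together form a ring-shaped activator that interferon induces in many cells, stood at 82.6 and 84.96 TPM and at 150 and 145 TPM. Psme3, whose product forms its own ring in the nucleus, stood at 109 and 125 TPM. Psme4, a single large protein that caps the core, was at 10.5 and 11.3 TPM, and Psme2b, a copy of Psme2, at 2.53 and 2.29 TPM. Psme1 thus lay within the range of cap genes. Psme2 lay above that range in replicate 1 and within it in replicate 2, and on coding transcripts alone it stood at 120 and 105 TPM, within it in both. The immunoproteasome genes lay below the cap range in both livers. Psme2b had 98.1% identity to Psme2 over 693 aligned coding bases, with a longest identical run of 264. These 2 rows carried an equal posterior SD in each library, 5.26 and 4.52 reads, which is 6.74% and 9.20% of the count of Psme2b but 0.13% and 0.18% of that of Psme2. The level of Psme2b is uncertain for that reason.

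Psmf1, a protein that binds the core and inhibits it in vitro, stood at 37.5 and 42.1 TPM. The chaperones that build the alpha ring were at a similar level: Psmg2 at 58.5 and 62.6 TPM, Psmg3 at 38.1 and 46.3, Psmg1 at 35.6 and 40.6, and Psmg4 at 33.6 and 32.1. Of the chaperones of the base, Psmd5 was at 81.2 and 90.4 TPM, Psmd10 at 31.9 and 32.4, and Psmd9 at 19.8 and 21.3. Of these 7 chaperones, Psmd5 and Psmg2 lay within the range of cap genes in both livers. The median of the 4 core chaperones was 40.1 ± 4.64 TPM (SD, n = 2), against 233 ± 5.95 TPM for the core they assemble. Of the prefix-only genes, Psmc3ip, a recombination factor, stood at 17.5 and 17.9 TPM, and Psme3ip1, which binds the product of Psme3, at 21.9 and 24.2 TPM. Psmc3ip and the gene Mlx share 385 exon bases on opposite strands and an equal posterior SD, so its reads are partly uncertain.

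Components and partners of the proteasome with other symbols had mean levels from 3.8 to 210 TPM. Of 15 such components and partners matched, 15 reached 1 TPM and 14 reached 10 TPM in each library. Pomp, the maturation factor of the core, stood at 185 and 183 TPM, above every Psmg gene. Sem1, a small lid subunit, was at 115 and 112 TPM, the ubiquitin receptor Adrm1 at 64.3 and 66.9, and the cap-bound deubiquitinase Usp14 at 88.9 and 93.1. The shuttle factor Ubqln2 was lowest at 3.78 and 3.87 TPM.

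The regulators of proteasome genes ranged widely in level. Nfe2l1, the factor that raises proteasome genes when the proteasome fails, stood at 7.93 and 8.43 TPM. Nfe2l2, its relative in the oxidative stress response, was at 32.7 and 34.7, and Nfe2l3 was lowest of the 9 regulators at 0.17 and 0.09 TPM. Vcp, the segregase that helps to activate Nfe2l1, was highest at 144 and 157 TPM. The activity of Nfe2l1 is largely set on the protein and was not measured here.

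Promoters were searched because these genes have known common regulators. RefSeq windows of assembly GRCm38.p6, from 250 bases before to 50 after the start, were found for 43 of 51 genes. On both strands, TGANNNNGC, the core of the element bound by the Nfe2l factors, was in 25 of 43 (58.1%), against 45.5% of 17492 protein-coding genes. CCAAT, the box of NF-Y, was in 16 (37.2%), against 42.3%. GAAANNGAA, the element of interferon regulatory factors, was in 7 (16.3%), against 9.43%. TGANNNNGC was in 8 of 11 core genes, 6 of 14 cap genes and 2 of 3 immunoproteasome genes, and GAAANNGAA in 0 of 3 immunoproteasome genes. These are counts of letters in a fixed window, not of bound sites. The 250 bases before the start of Psmb6, the highest catalytic subunit, hold TGANNNNGC once, right before the start. They are shown 5′ to 3′ on the plus strand, chr11:70525107-70525356 of GRCm38.p6, with the match in capitals.
Psmb6: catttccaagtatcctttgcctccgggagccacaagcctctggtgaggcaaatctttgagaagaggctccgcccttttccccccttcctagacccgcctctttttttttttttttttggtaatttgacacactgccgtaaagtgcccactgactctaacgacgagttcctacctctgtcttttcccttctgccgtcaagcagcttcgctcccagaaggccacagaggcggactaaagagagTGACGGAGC

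Most of these genes were read as a single main transcript. Among the 47 genes averaging 10 TPM or more, 46 had the same leading transcript in both livers, and in 32 it held 90% or more of the gene's TPM in each. Of the 47, 9 had only 1 transcript in the tables, so their lead was fixed. No share over all genes is set beside these counts, so they describe these genes only. Protein-coding transcripts held 90% or more in both livers for 40 of 47. In 10 genes the leading transcript held under 80% in both livers: Psma3, Psmb4, Psmb8, Psmc3ip, Psmd4, Psmd11, Psmd13, Psme2, Psmg3 and Psmg4. Psmd4 was the gene whose lead changed, from Psmd4-202 with 49.2% in replicate 1 to Psmd4-201 with 50.3% in replicate 2, both coding.

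In Psma3 and Psmc3ip the leading transcript was not coding. Psma3-203, annotated as a retained intron, held 35.0% and 37.7% of the gene's TPM, and the coding Psma3-204 held 33.4% and 29.5%. Psmc3ip-202, also a retained intron, held 57.7% and 57.8%. Psmb4-201 held 63.8% and 59.7%, with 35.1% and 39.3% on the retained-intron form Psmb4-202. Psmd13-201 held 53.0% and 50.7%, with 20.1% and 25.1% on Psmd13-211, a form annotated for nonsense-mediated decay. Psme2-201 held 50.8% and 44.8%, beside the coding Psme2-208 with 29.0% and 27.5% and retained-intron forms with 20.3% and 27.2%. Most of the latter lay on Psme2-203, of 185 nucleotides, with 18.35% and 21.05% of TPM but 2.51% and 3.04% of reads. Psmb4-202 held 22.2% and 25.4% of its gene's reads, and Psmd13-211 held 15.4% and 19.6%. In Psma3 and Psmc3ip the retained-intron lead stayed by reads, Psma3-203 with 37.6% and 40.3% and Psmc3ip-202 with 54.98% and 54.61%.

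Both main forms of Psmb8 were coding. Psmb8-203, of 815 nucleotides, held 58.9% and 50.8% of TPM, and Psmb8-201, of 1628 nucleotides, 41.1% and 49.2%. By reads the order was the other way, with 59.9% and 67.4% on Psmb8-201. When only coding transcripts were summed, 45 genes stayed at 10 TPM or more, and Psme4 (9.99 and 10.8 TPM) and Psmc3ip (5.22 and 5.61 TPM) did not. Total RNA holds unspliced RNA too, and its part in the retained-intron shares was not tested.

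**Figure D4:**
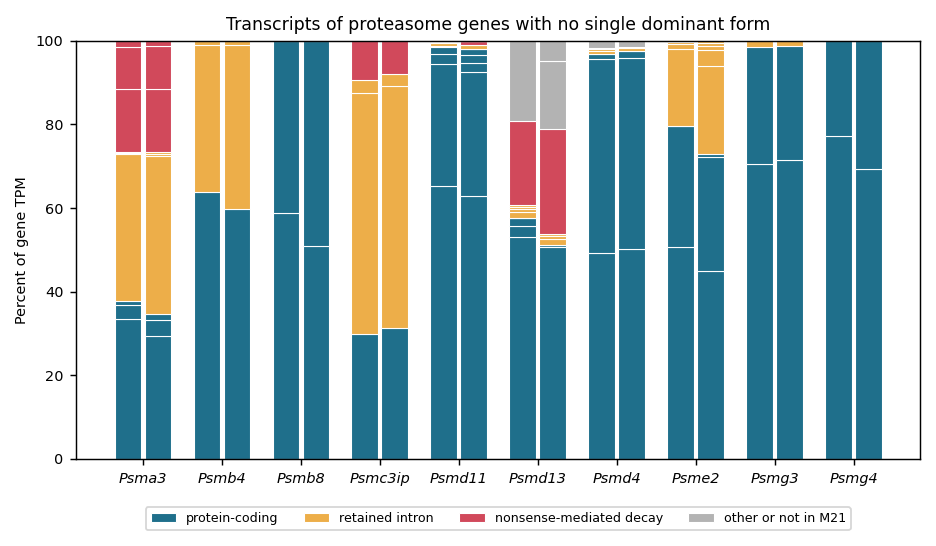
Percent of each gene's TPM by transcript, for the 10 genes whose leading transcript held under 80% in both livers. The left bar of each pair is replicate 1 and the right bar replicate 2, each segment is 1 transcript, and colours give the annotated class. Psma3, Psmb4, Psmc3ip and Psme2 hold retained-intron shares of 20.27% or more, and Psmd13 holds 20.1% and 25.1% on a decay-annotated form. Psmb8, Psmd4, Psmd11, Psmg3 and Psmg4 are nearly all coding. These are shares of TPM and not of reads.

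Between the livers the proteasome genes differed little. Among the 47 genes averaging 10 TPM or more, 0 differed by 25% or more (the higher liver over the lower, on TPM + 1). Of all 5576 genes averaging 10 TPM or more, 6.6% did. That background was not matched for level, and the 47 genes had medians of 106 and 113 TPM. The 2 shares therefore do not show that proteasome genes vary less than genes of their own level. The differences ran from −0.23 (Psmb8) to 0.28 (Psmd3) in log2(TPM + 1), replicate 2 minus replicate 1. In replicate 2, 36 of 47 were higher (76.6%), against 76.3% of all genes, so this share was that of the background. The median over the 47 genes was 0.06 and over all genes 0.09.

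The sign of these differences depends on the scale, so they were also read relative to all genes. With TMM factors the medians were −0.05 for proteasome genes and −0.02 for all genes, and 11 of 47 genes were higher in replicate 2. On TPM, FPKM and TMM alike the proteasome genes lay 0.03 below all genes. Relative to all genes, the median of core genes lay at −0.09 and that of cap genes at −0.02 on both TPM and TMM. Psma7 stood at 284 and 255 TPM, a difference of −0.25 relative to all genes on both scales, and Psma3 at −0.20 and −0.21. Psmd3 stood at 45.1 and 55.1 TPM and lay 0.19 and 0.18 above all genes, and Psmg3 0.18 and 0.17 above. Psmb8 lay at −0.325 on TPM and −0.25 on TMM. For some genes the place among all genes also changed with the scale: Psmb9 lay at 0.19 and 0.06, Psme2 at −0.15 and −0.23, and Psmb4 at 0.01 and −0.03. The libraries were collected on different days, and day and embryo cannot be told apart.

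**Figure D5:**
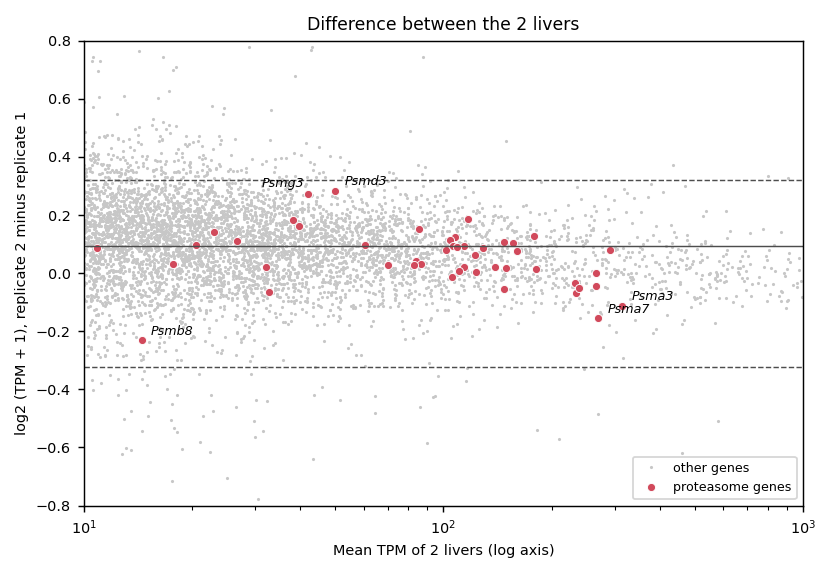
Difference between the livers in log2(TPM + 1), replicate 2 minus replicate 1, against mean TPM on a log axis, for the 47 proteasome genes (red) and other genes averaging 10 TPM or more (grey). The solid line is the median of all genes, 0.09, the dashed lines mark 25% more in either liver, and genes outside the axes are not drawn. All 47 proteasome genes lie between the dashed lines, from Psmb8 at −0.23 to Psmd3 at 0.28.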

How the data were processed

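For each of the 2 libraries a gene table and a transcript table were used, built on mm10 and GENCODE M4 per the deposited file descriptions. Aligner, counter and strand use were not given in the sources used here. Per the file headers, the tables hold expected counts (estimated reads per row, not normalized), TPM and FPKM as the authors computed them. The authors also deposited a posterior SD of each count, a score in reads, the bounds of TPM as a signal without a stated level, and the percent of gene TPM held by each transcript.

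Symbols and positions came from GENCODE M21 by unversioned identifier, which left 884 mouse rows without a symbol, and 26248 rows with numeric identifiers were left out. Genes were counted at 1, 10 and 50 TPM. Differences between livers were taken as log2(TPM + 1), with a pseudocount of 1, which understates those of low genes. Replicates were numbered as labelled. A chi-square of 12.1 per degree of freedom between the libraries showed that they are not copies. No test between groups was possible with 1 group. Genes named are all members, the highest and lowest of the other lists, those set beside a member, and members with a divided or non-coding lead transcript. Some genes of the other lists are not reported here. Members, lists and rules were chosen with earlier results of these data known. Alternatives were FPKM, counts, CPM with TMM factors from edgeR, other pseudocounts and filters, coding transcripts, added pseudogenes, removed globin and each library alone. Only pseudogenes with a proteasome gene symbol were added, each at 0.29 TPM or less. Gm13835 was not added, so that alternative does not address the reads it shares with Psma3. Counts ranged from 28848861 to 39998450 per library, and all intervals and the floor of 3 counts cover counting error only. Python 3.11.15, numpy 2.4.6, pandas 2.3.3, scipy 1.17.1, matplotlib 3.10.9, R 4.3.3 and edgeR 4.0.16 were used.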

Additional observations from a re-analysis of the deposited data

How the results depend on the processing

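Leaving aside 6 single-liver values, which with 2 livers must lie within the SD, 42 alternative values were computed. Of these, 33 stayed close to the reported one. Close meant within the SD between livers, within 1.5-fold for counts of genes, or within 0.005 for the median difference between livers. Several of the 33 were bound to stay close, so their number does not measure robustness. Within a library FPKM is TPM times a constant, so the pairs, core over cap and core SD could hardly change on it. Gene counts at 1 TPM or in 1 liver could only lie between 47 and 51. The added pseudogenes were each at 0.29 TPM or less. The median of the pairs, −3.62 for immunoproteasome over constitutive (log2), was −3.13 on expected counts and ranged from −3.81 to −3.43 over single livers. Core over cap, 1.10 on the log2 scale, was 0.24 on expected counts scaled to depth and 0.96 on coding transcripts, and ranged from 1.04 to 1.16 over single livers. The SD over core genes, 0.39, was 0.31 on expected counts scaled to depth and 0.49 on coding transcripts, and ranged from 0.37 to 0.42 over single livers. The median difference between livers, 0.06, was 0.0105 on FPKM, 0.07 with a mean of 1 TPM, 0.0334 without globin genes and reversed to −0.0469 on CPM with TMM factors. Expected counts are not divided by length. On coding transcripts Psma3 and Psmb4 were lower, and their part in the shifts was not tested. The cause of the other shifts was not tested. The count of 47 genes at 10 TPM was 50 at 1 TPM, 35 at 50 TPM and 45 on coding transcripts, and stayed at 47 in each single liver. The count of genes differing by 25% or more was 0 under each of the 9 alternatives tried. A fold of 1.5 and a pseudocount of 5 could not have raised it. With a mean of 1 TPM or no filter, it rested on the pseudocount of 1. In plain TPM, Psmb9 differed 1.26-fold and Psma8 1.29-fold, and Psmb11 stood at 0.02 and 0 TPM. No paired analysis was possible because there was 1 group. With 2 libraries the SD has 1 degree of freedom, and nothing here speaks of other ages, strains or tissues. Psmb9, Psma8, Psmb11 and Psme2b rest on few reads, and reads of Psma3, Psme2b and Psmc3ip were shared with other rows.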

Other observations

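Genes that supply ubiquitin, the tag the proteasome reads, were read beside the proteasome genes. Ubb, which encodes a chain of ubiquitin repeats, stood at 1125 and 1144 TPM. Rps27a, which encodes ubiquitin fused to a ribosomal protein, stood at 940 and 881 TPM. Both were above every proteasome gene in both livers. The activating enzyme Uba1 was at 59.7 and 63.0 TPM and its relative Uba6 at 3.75 and 4.39 TPM.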
